A study of Homo sapiens with 17 samples.

Results

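Immediate early genes encode regulators whose mRNAs are made within minutes of a stimulus from factors already present in the cell and are then rapidly degraded. JUN, JUNB and JUND pair with FOS or ATF family proteins through leucine zippers to form AP-1, EGR1 and KLF6 bind GC-rich DNA through zinc fingers, MYC drives growth genes as a partner of MAX, and IER2 is a short-lived nuclear protein. Stress kinases activated by DNA damage are known inputs to several of these genes. The 9 genes JUN, JUNB, JUND, FOS, ATF3, EGR1, KLF6, MYC and IER2 were chosen by name, as short-lived mRNAs that stress and damage induce, with earlier results of these data known. They are 9 of 15660 genes with any count at 36 h and of 17023 at 72 h.

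Ribosome footprints and mRNA were sequenced from HEK293 cells, a human embryonic kidney line that carries adenoviral E1 genes, 36 or 72 h after electroporation of Cas9 or of dCas9 in complex with the guide sgIntron, which targets an intron of JAK2. Cas9 cuts its target, whereas dCas9 binds without cutting and served as the control, so that every group had received a protein, a guide and an electroporation. The earlier time point comprised 2 Cas9 (a, c) and 2 dCas9 (d, e) footprint libraries beside 3 Cas9 (a, b, c) and 2 dCas9 (d, e) mRNA libraries, with synthetic guides. The later one comprised, for either nuclease, a pair of footprint libraries (e, f) and a pair of mRNA libraries (a, b), with guides transcribed in vitro. Each replicate was 1 plate that pooled several electroporations, and cells that were not electroporated are not among these libraries.

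Counts per library, with 1 transcript for each gene, ranged from 689636 (dCas9 e) to 4868580 (dCas9 d) for footprints at 36 h and from 3183555 to 8864461 at 72 h. For mRNA they ranged from 25095505 to 42825667. The HEK293 markers VIM, NEFM, NEFL, LIN28B and SOX11 were present in all libraries. PAX2 reached at most 0.305 CPM (counts scaled to the library total) in mRNA and 2.14 CPM in footprints. The leukocyte markers PTPRC and CD3E, ALB, PECAM1 and HBB stayed below 0.8 CPM in mRNA. COL1A1 was at 3.31 to 9.68 CPM in mRNA and at 10.3 to 27.5 CPM in footprints. COL3A1 reached at most 0.937 CPM in mRNA and 4.83 CPM in footprints. The number of genes that differed between Cas9 and dCas9 depended on single libraries. For footprints at 36 h it was 0 with all libraries, 767 without dCas9 d and 321 without Cas9 c, and for mRNA at 72 h it was 613 with all libraries and 2472 without dCas9 b.

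The stretches upstream of the RefSeq start sites (GRCh38.p14) show which short elements these genes carry. A promoter entry was at hand for 8 of the 9 genes, all but MYC, and the 250 bases before each start were searched on both strands. The sequence TGACATCA, a variant of the AP-1 and CRE element through which JUN is known to act on its own gene, was found in 3 of the 8 genes and in 2.38% of 35116 promoters. Capitals mark it in these stretches, each printed 5′ to 3′ on the strand of its gene.
JUN, chr1:58784081-58784140, minus strand: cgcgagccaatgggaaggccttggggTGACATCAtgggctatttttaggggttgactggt
ATF3, chr1:212565258-212565317, plus strand: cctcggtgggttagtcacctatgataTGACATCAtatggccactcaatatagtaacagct
KLF6, chr10:3785348-3785407, minus strand: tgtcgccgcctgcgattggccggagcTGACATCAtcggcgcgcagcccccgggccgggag
The match began 67 bases before the start in JUN, 123 in ATF3 and 172 in KLF6. ATF3 has a second start in the table without this match, and its counted transcript began at position 212608761, downstream of the stretch shown.

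Other elements occurred in single members or in several. JUND held the full CRE TGACGTCA, found in 1.65% of promoters. EGR1 held a pair of CArG boxes, the binding element of serum response factor, found in 1.16% of promoters. FOS is shown for its TGACG core of a CRE and its TATAAA box, found in 21.2% and 10.7% of promoters. TATAAA also occurred in JUNB and, only before the second start and not at the start shown above, in ATF3, so in 3 of the 8. Capitals mark the CRE in JUND, the CArG boxes in EGR1, and TGACG and TATAAA in FOS. A TGACG match on the other strand, 66 bases before the EGR1 start, stays in lower case.
JUND, chr19:18281789-18281848, minus strand: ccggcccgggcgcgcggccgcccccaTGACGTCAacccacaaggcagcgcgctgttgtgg
EGR1, chr5:138465360-138465419, plus strand: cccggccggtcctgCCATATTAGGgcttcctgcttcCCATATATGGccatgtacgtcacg
FOS, chr14:75278752-75278811, plus strand: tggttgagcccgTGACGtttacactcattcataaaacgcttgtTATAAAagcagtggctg
TGACG, which is also part of TGACGTCA, occurred in 6 of the 8 genes (JUN, JUNB, JUND, FOS, EGR1 and IER2) and CCAAT in 5 of 8, against 32.0% of promoters. The AP-1 element TGANTCA, found in 6.57% of promoters, and CACGTG, found in 6.34%, occurred in 0 and 1 of the 8 genes. A match describes letters in this window and not binding.

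The coding regions were rich in GC. Counted transcripts had a coding GC content of 51.4% in ATF3, 55.6% in KLF6, 58.8% in MYC, 60.5% in FOS, 62.7% in EGR1, 64.5% in JUN, 67.9% in JUNB, 69.7% in IER2 and 73.4% in JUND, against a median of 53.0% over all genes with counts. JUN (chr1:58776845-58784048, minus strand), JUNB (chr19:12791486-12793315, plus strand) and JUND (chr19:18279694-18281622, minus strand) were counted on transcripts of 1 exon, as were 3.89% of all genes (coordinates of hg38, GENCODE release 44). FOS (chr14:75278826-75282230, plus strand), ATF3 (chr1:212565334-212620777, plus strand) and KLF6 (chr10:3775996-3785281, minus strand) had 4 exons, and EGR1 (chr5:138465479-138469303, plus strand) and IER2 (chr19:13150411-13154911, plus strand) had 2. The pentamer ATTTA, the core of AU-rich elements that speed mRNA decay, occurred 6 times in the 3′ UTR of KLF6 and of the MYC transcript counted at 36 h, 4 times in the shorter MYC transcript of 72 h, 5 times in FOS, 3 times in JUN and in ATF3, 2 times in JUNB, once in JUND and in EGR1 and 0 times in IER2. The median over all genes was 2, so KLF6, MYC, FOS, JUN and ATF3 lay above it and JUND, EGR1 and IER2 below. Per 1000 bases of 3′ UTR the ranks changed, with MYC (72 h transcript) at 9.66, FOS at 6.20 and JUNB at 4.00 highest and KLF6 at 1.69 near the median of 1.47.

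Levels of the genes are compared here as CPM per 1000 codons of the counted coding part, since longer regions collect more reads. MYC and JUN headed the order in every group. In dCas9 mRNA at 36 h, MYC stood at 669 and 649 per 1000 codons in replicates d and e, and JUN at 486 and 450.4. JUND followed at 199.6 and 169.9, ahead of IER2 at 137 and 128 and ATF3 at 112 and 146, and the last 2 overlapped. KLF6 was at 49.8 and 43.2 and JUNB at 33.8 and 26.4, without overlap. EGR1 at 6.34 and 5.41 and FOS at 5.68 and 3.51 closed the order, and they overlapped. The 9 genes thus fell into a high pair, a middle group from JUND to JUNB and a low pair.

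The order of footprints differed from that of mRNA at several places. MYC and JUN overlapped in footprints of dCas9 cells at both time points, at 1114 and 1083 against 955 and 1279 per 1000 codons at 36 h, while their mRNA levels were separate. IER2 stood above JUND in footprints of all 4 groups, at 292 and 444 against 219 and 256 in dCas9 cells at 36 h, while JUND stood above IER2 in mRNA of all 4 groups. In dCas9 cells at 36 h KLF6 stood above JUNB in mRNA, while JUNB at 79.3 and 73.8 stood above KLF6 at 58.2 and 67.3 in footprints. In Cas9 cells at 72 h ATF3 at 79.6 and 80.7 stood above IER2 at 64.5 and 63.6 in mRNA and below it in footprints. At 72 h the same genes held the ends of the order, with MYC footprints at 909 and 957 and FOS footprints at 3.47 and 3.64 in dCas9 cells.

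**Figure D1:**
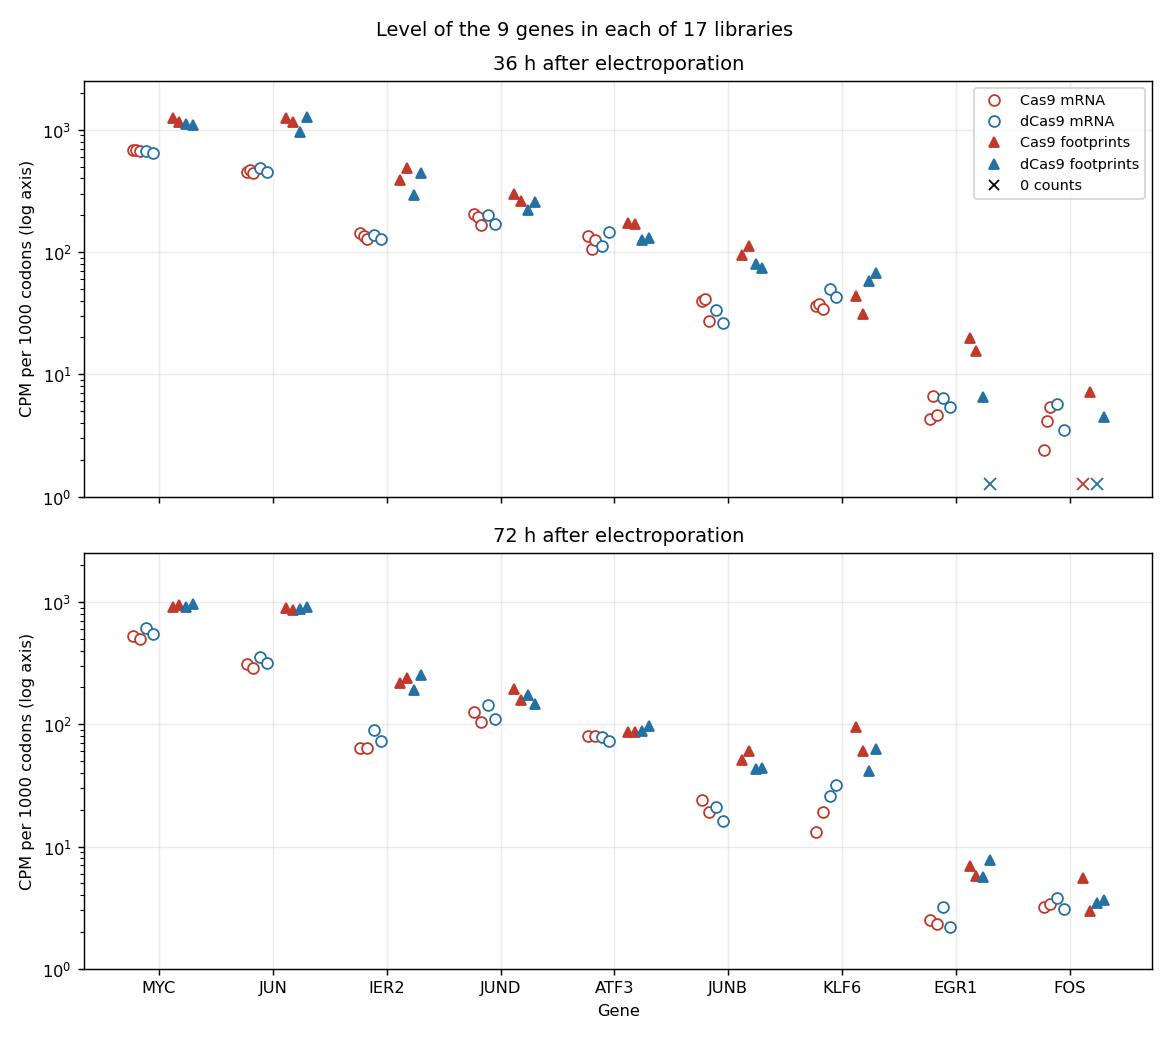
Level of each of the 9 genes in each of the 17 libraries, as CPM per 1000 codons on a log axis, at 36 h (top) and 72 h (bottom), with circles for mRNA, triangles for footprints, red for Cas9 and blue for dCas9 cells, and crosses at the lower edge for libraries with 0 counts. MYC and JUN lie highest in every group, and FOS and EGR1 lowest.

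FOS and EGR1 were close to the limit of the data. FOS had 28 to 66 mRNA counts at 36 h and 42 to 50 at 72 h, and EGR1 had 73 to 90 and 42 to 61. FOS footprints were 0 (Cas9 a), 6 (Cas9 c), 0 (dCas9 d) and 1 (dCas9 e) at 36 h, where 0 counts allow up to 3.45 CPM in Cas9 a and 0.638 CPM in dCas9 d by counting error alone. FOS footprints at 72 h were 6 in each Cas9 library and 8 and 11 in dCas9 e and f. EGR1 footprints were 9 and 19 in Cas9 cells and 16 and 0 in dCas9 cells at 36 h, with up to 4.83 CPM allowed by the 0 of dCas9 e, and 11, 17, 19 and 34 at 72 h in Cas9 e and f and dCas9 e and f. Both genes were thus detected as mRNA in all 9 mRNA libraries, and their footprints at 36 h were too few to compare the groups. With no count minimum, EGR1 footprints at 36 h had a log2 difference of 1.77 (95% CI -0.04 to 3.57) and FOS footprints one of 2.64 (-1.56 to 6.85), so neither interval excluded 0.

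A gene was tested when its mean count reached 20 in footprint and in mRNA libraries. This left 7 of the 9 genes at 36 h, all but FOS (mean of 1.75 footprints) and EGR1 (11), and 8 at 72 h, all but FOS (7.75). EGR1 passed only narrowly at 72 h, with a mean of 20.2 footprints. Differences are log2 ratios of CPM with 95% confidence intervals and adjusted p-values of the edgeR quasi-likelihood test, taken over all tested genes, and a gene was called at an adjusted p under 0.1.

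The first comparison asked whether Cas9 cells differed from dCas9 cells 36 h after the electroporation. None of the 7 genes passed the test in mRNA, in footprints or in translational efficiency, the ratio of footprints to mRNA, and neither did any of the 9016 genes tested (0%). An unadjusted p under 0.05 was reached by 862 genes in footprints (9.56%), 26 in mRNA (0.288%) and 568 in translational efficiency (6.3%), and by 0 of the 7. In DESeq2, 46 genes passed in footprints, 0 in mRNA and 1 in translational efficiency, again without any of the 7. For KLF6 footprints DESeq2 gave no adjusted p.

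The JUN family differed little in mRNA at 36 h. JUN mRNA was 139.9, 146 and 137 CPM in Cas9 a, b and c and 151 and 140.1 in dCas9 d and e, a log2 difference of -0.05 (-0.32 to 0.22). JUND mRNA was 67.5, 63.3 and 54.0 against 65.3 and 55.5 CPM, a difference of 0.03 (-0.32 to 0.38). The values of both nucleases overlapped for JUN and for JUND, and the intervals leave room for changes of about 0.3 to 0.4 on the log2 scale. JUNB mRNA was 13.0, 13.5 and 8.84 against 11.1 and 8.62 CPM, a difference of 0.26 (-0.39 to 0.91), with Cas9 a and b high and Cas9 c inside the range of dCas9.

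Footprints of the JUN family and of ATF3 lay somewhat higher in Cas9 cells at 36 h, within an error that the test did not exceed. JUNB footprints were 31.1 and 36.4 CPM in Cas9 a and c and 25.9 and 24.1 in dCas9 d and e, a difference of 0.43 (-0.40 to 1.26). ATF3, a stress-induced member of the CREB family, had 27.6 and 27.4 against 20.2 and 20.9 CPM, also a difference of 0.43 (-0.33 to 1.19). Neither gene overlapped between the groups, and the counts behind these values were 13 to 122. JUND footprints were 96.7 and 86.1 against 71.6 and 83.7 CPM (0.26, -0.21 to 0.72), and JUN footprints 386 and 358 against 297 and 398 CPM (0.13, -0.19 to 0.45). JUN thus overlapped and JUND did not. ATF3 mRNA was 21.7, 16.99 and 20.0 against 18.0 and 23.6 CPM, with the groups overlapping, and its translational efficiency differed by 0.52 (-0.42 to 1.45).

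MYC and IER2 mRNA at 36 h had log2 differences of 0.04 (-0.16 to 0.25) and 0.03 (-0.39 to 0.45). MYC mRNA was 297, 296 and 289 CPM in Cas9 cells and 290.5 and 282 in dCas9 cells, and its footprints were 538 and 504 against 483 and 470.1 CPM, a difference of 0.12 (-0.12 to 0.36). IER2 mRNA was 28.9, 27.5 and 25.8 against 27.8 and 26.0 CPM, and its footprints were 79.4 and 98.6 against 59.3 and 90.2 CPM, a difference of 0.36 (-0.18 to 0.90). MYC footprints did not overlap between the groups and IER2 footprints did. MYC carried the narrowest interval of the 7 genes and also their highest counts.

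KLF6 differed from the other 6 in the sign of its footprint difference at 36 h. KLF6 mRNA was 9.52, 9.85 and 8.96 CPM in Cas9 a, b and c and 13.1 and 11.4 in dCas9 d and e, a difference of -0.37 (-1.04 to 0.29, adjusted p of about 1). KLF6 footprints were 11.5 and 8.14 against 15.3 and 17.7 CPM, from 10 to 72 counts, a difference of -0.78 (-1.78 to 0.23, adjusted p = 0.613). All Cas9 libraries lay below both dCas9 libraries in each type, as in 8.5% of all tested genes in mRNA and 14.1% in footprints. Neither difference passed the test. The other 6 genes had positive footprint differences, and the median of the 7 was 0.26 against 0.02 over all tested genes. Measured from the median of genes of like coding GC content, the median of the 7 was 0.10, and with the GC content offset JUND moved from 0.26 to 0.07, JUN from 0.13 to 0.05 and MYC from 0.12 to 0.06. In footprints 5 of the 7 genes did not overlap between the groups, 4 higher and 1 lower in Cas9 cells, where 16.3% and 14.1% of all tested genes lay apart in those directions.

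At 72 h KLF6 was the 1 gene of the 8 tested that was called between Cas9 and dCas9 cells, and it was called in mRNA only. In mRNA 5.63% of all tested genes were called, 0.422% higher and 5.2% lower in Cas9 cells, a background against which 1 of 8 says little about the set. In footprints 0 of 8 genes and 0% of all tested genes were called in edgeR and in DESeq2, with 396 genes at an unadjusted p under 0.05 in edgeR and 320 in DESeq2. In translational efficiency 0 of 8 genes and 0.716% of all tested genes were called.

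KLF6 mRNA at 72 h was 3.46 and 5.05 CPM in Cas9 a and b and 6.77 and 8.43 CPM in dCas9 a and b, from 125, 174, 246 and 376 counts. Both Cas9 libraries lay below both dCas9 libraries. The level in Cas9 cells was 0.559-fold that in dCas9 cells (95% CI 0.386 to 0.807), a log2 difference of -0.84 (SE 0.25, adjusted p = 0.0827). The call was lost without the mRNA library of Cas9 a (-0.60, adjusted p = 0.866) and, narrowly, without the footprint library of dCas9 f (adjusted p = 0.100348). It was also lost with the replicate letter as a block (adjusted p = 0.124), and it held in the 9 other alternatives, where the difference was -0.85 to -0.78, and in 6 of 8 fits that left out a library.

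KLF6 footprints at 72 h did not follow its mRNA. They were 24.9 and 15.8 CPM in Cas9 e and f and 11.0 and 16.6 CPM in dCas9 e and f, a difference of 0.50 (-0.10 to 1.11, adjusted p of about 1), with Cas9 e highest and Cas9 f inside the range of dCas9. The ratio of footprints to the mean mRNA of its group was 5.84 and 3.72 in Cas9 e and f and 1.44 and 2.19 in dCas9 e and f, so the 2 nucleases did not overlap. Translational efficiency was 2.54-fold higher in value in Cas9 cells (95% CI 1.45 to 4.44, log2 difference 1.34, adjusted p = 0.178) and was not called. All 16 combinations of 2 Cas9 and 2 dCas9 libraries, which reuse the same libraries, gave a positive value, as they did for 15.7% of all tested genes. The log2 difference itself was above that of 99.9% of all tested genes. With the GC content offset its adjusted p was 0.061, with median-ratio size factors 0.0674 and with no count minimum 0.00562, while DESeq2 gave no adjusted p. It thus stood on either side of the threshold depending on the setting, and the log2 difference ranged from 1.24 to 1.38 over the 9 alternatives. At 36 h the same ratio was 1.22 and 0.862 in Cas9 cells and 1.25 and 1.45 in dCas9 cells, a log2 difference of -0.40 (-1.62 to 0.81). Whether the difference of KLF6 changed between 36 and 72 h was not tested, since guides, aligner and annotation differ between the time points.

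**Figure D2:**
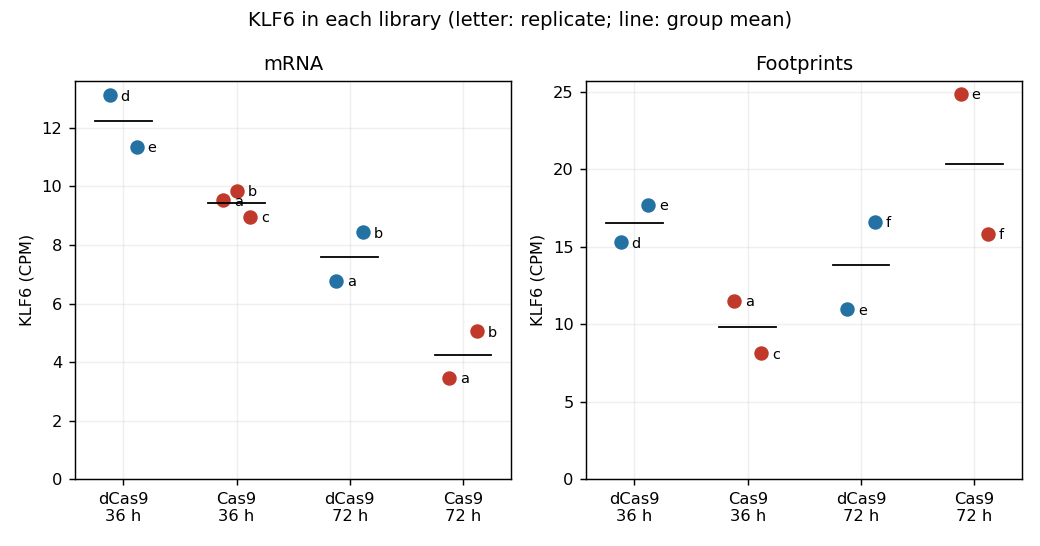
KLF6 in each library, in CPM, for mRNA (left) and footprints (right), with 1 point for each library, its replicate letter beside it and a line at the mean of each group. In mRNA, Cas9 libraries lie below dCas9 libraries at both time points, and in footprints at 72 h Cas9 e lies highest at 24.9 CPM while Cas9 f lies within the range of dCas9.

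MYC, JUN and IER2 had mRNA differences below 0 at 72 h that did not pass the test. MYC mRNA was 227 and 215 CPM in Cas9 a and b and 268 and 237 in dCas9 a and b, a difference of -0.19 (-0.39 to 0.01, adjusted p = 0.304). JUN mRNA was 97.2 and 90.7 against 110.4 and 99.4 CPM, a difference of -0.16 (-0.37 to 0.05, adjusted p = 0.426). IER2 mRNA was 13.2 and 13.0 against 18.4 and 14.8 CPM, a difference of -0.35 (-0.69 to 0.00, adjusted p = 0.296). In all 3 genes both Cas9 libraries lay below both dCas9 libraries, with dCas9 a highest. Over the 8 genes, 5 did not overlap between the groups, 4 lower (KLF6, IER2, MYC and JUN) and 1 higher (ATF3) in Cas9 cells, where 25.8% and 23.8% of all tested genes lay apart in those directions.

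These mRNA values depended on which dCas9 library was kept. Without dCas9 a, the differences of JUND and EGR1 turned positive, to 0.07 and 0.15, and that of KLF6 was -0.97. When each library was left out, JUN ranged from -0.29 to -0.07, MYC from -0.33 to -0.09 and IER2 from -0.55 to -0.17. JUN, JUND, IER2 and MYC were lower than in dCas9 a, and KLF6 higher, in the library dCas9 b. Without it 5 of the 8 genes were called lower in Cas9 cells, as were 12.8% of all tested genes. They were JUN (-0.29, adjusted p = 0.0506), JUND (-0.39, 0.0724), IER2 (-0.55, 0.0327), MYC (-0.33, 0.0189) and KLF6 (-0.73, 0.093). In that setting 1 dCas9 mRNA library remains, whose spread is assumed to be that of the other groups, and 22.7% of all genes were called in either direction. In the whole set, the mRNA differences at 72 h moved with coding GC content (Spearman correlation of -0.41 over 10856 genes, which share their libraries), and the part of GC content in the members' values was not tested apart from the offset.

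JUNB and JUND mRNA overlapped between the groups at 72 h. JUNB was at 7.86 and 6.30 CPM in Cas9 a and b and at 6.91 and 5.31 in dCas9 a and b (0.22, -0.20 to 0.64), and JUND at 40.9 and 34.4 against 47.5 and 36.2 CPM (-0.15, -0.48 to 0.18). For both genes replicate a exceeded replicate b with either nuclease. ATF3 mRNA was 12.9 and 13.1 against 12.7 and 11.9 CPM, a difference of 0.08 (-0.25 to 0.42), and EGR1 mRNA was 1.301 and 1.22 against 1.68 and 1.14 CPM, a difference of -0.15 (-0.81 to 0.51). ATF3 lay slightly higher in Cas9 cells without passing the test, and the 42 to 61 counts of EGR1 left a wide interval.

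Footprints at 72 h were close between the nucleases for most of the genes. JUN footprints were 278 and 269 CPM in Cas9 e and f and 275 and 284 in dCas9 e and f (-0.03, -0.25 to 0.18). MYC footprints were 393 and 406 against 394 and 415 CPM (-0.02, -0.22 to 0.18). IER2 footprints were 44.4 and 48.8 against 38.7 and 51.7 CPM (0.05, -0.33 to 0.42). The groups overlapped in all 3, and for JUN and MYC a change beyond 0.25 in either direction lay outside the interval. JUNB was the next after KLF6 in size, at 16.6 and 19.8 against 14.1 and 14.4 CPM (0.37, -0.12 to 0.86). Its Cas9 libraries lay above both dCas9 libraries, as in 16% of all tested genes. Those of ATF3 lay below both, as in 15.8% of all tested genes. JUND (0.12, -0.24 to 0.49), ATF3 (-0.09, -0.52 to 0.34) and EGR1 (-0.13, -1.03 to 0.77) had intervals on both sides of 0.

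Translational efficiency of the remaining 7 genes at 72 h differed by -0.17 (ATF3) to 0.39 (IER2). The median over all 8 was 0.16 against 0.00 over all tested genes. Measured from the median of genes of like coding GC content, the median of the 8 was 0.07. IER2 had ratios of 3.40 and 3.73 in Cas9 e and f against 2.33 and 3.11 in dCas9 e and f (0.39, -0.12 to 0.90, adjusted p = 0.567). MYC had 1.78 and 1.84 against 1.56 and 1.64 (0.17, -0.11 to 0.46), and JUN 2.96 and 2.86 against 2.62 and 2.71 (0.13, -0.17 to 0.43). All 3 intervals included 0. These ratios divide by the mean mRNA of a group. Over single libraries, 14 of 16 combinations were positive for IER2 and 15 of 16 for MYC and for JUN.

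**Figure D3:**
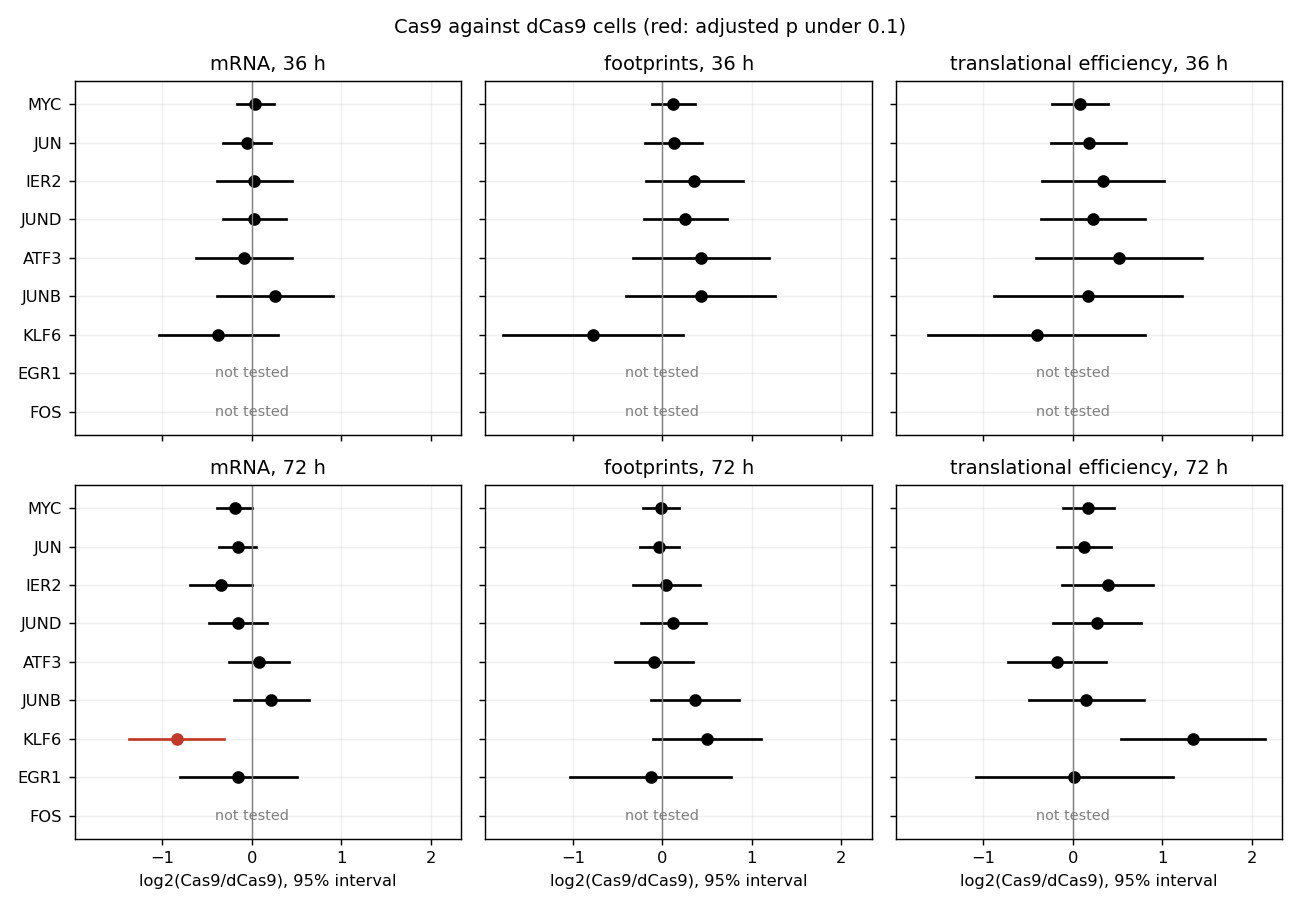
Log2 difference of Cas9 against dCas9 cells with its 95% confidence interval for mRNA, footprints and translational efficiency (columns) at 36 h (top) and 72 h (bottom), with red for an adjusted p under 0.1 and "not tested" for genes below the count minimum. KLF6 mRNA at 72 h, at -0.84, is the point in red, and KLF6 translational efficiency at 72 h, at 1.34, lies farthest to the right.

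The second question was how densely ribosomes occupied these mRNAs in the control cells. In dCas9 cells the footprint share of most of the 9 genes exceeded their mRNA share. At 36 h 4 of the 7 tested genes were called higher in footprints and 0 lower, where 23.6% of all tested genes were called higher and 24.6% lower. At 72 h 7 of 8 were called higher and 0 lower, against 32.7% and 37.8%. The median difference was 0.74 at 36 h and 1.05 at 72 h, against -0.01 and -0.06 over all tested genes.

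IER2, JUN and JUNB had the most footprints for their mRNA at both time points, with EGR1 beside them at 72 h. The ratio of footprint CPM to mean mRNA CPM for IER2 was 2.21 and 3.35 in dCas9 d and e at 36 h and 2.33 and 3.11 in dCas9 e and f at 72 h. For JUN it was 2.04 and 2.73, then 2.62 and 2.71, and for JUNB 2.63 and 2.45, then 2.31 and 2.35. These genes gave log2 differences of 1.39 (SE 0.24, adjusted p = 0.000358), 1.22 (0.15, 1.27e-05) and 1.36 (0.37, 0.00871) at 36 h. At 72 h the differences were 1.45 (SE 0.17, adjusted p = 1.55e-06), 1.41 (0.10, 5.61e-09) and 1.22 (0.21, 0.000109). EGR1 had ratios of 2.11 and 2.88 at 72 h, a difference of 1.35 (SE 0.35, adjusted p = 0.00287).

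MYC and KLF6 were intermediate. MYC had ratios of 1.69 and 1.64 at 36 h and of 1.56 and 1.64 at 72 h, with log2 differences of 0.74 (SE 0.11, adjusted p = 9.43e-05) and 0.68 (0.09, 9.96e-06). KLF6 had ratios of 1.25 and 1.45 at 36 h, a difference of 0.39 that did not pass (adjusted p = 0.455), and was called at 72 h at 0.87 (SE 0.26, adjusted p = 0.00797). Without the footprint library dCas9 f KLF6 at 72 h was 0.52 and not called (adjusted p = 0.204).

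JUND and ATF3 had the lowest values of the tested genes. JUND had ratios of 1.19 and 1.39 at 36 h (0.33, adjusted p = 0.215) and of 1.35 and 1.15 at 72 h (0.32, SE 0.16, adjusted p = 0.0918). The 95% interval of the latter, -0.02 to 0.66, included 0 although it passed the threshold of 0.1, and the call was lost without the mRNA library dCas9 b (adjusted p = 0.457) and without the footprint library dCas9 e (0.431). ATF3 had ratios of 0.972 and 1.01 at 36 h (-0.03, -0.71 to 0.66) and of 1.16 and 1.27 at 72 h (0.28, -0.09 to 0.65), neither of them called.

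The difference between footprints and mRNA moved with coding GC content over all genes, with a Spearman correlation of 0.26 at 36 h over 8994 genes and of 0.35 at 72 h over 10856 genes that share their libraries. For genes of 60 to 65% GC, the class of JUN and EGR1, the median was 0.28 at 36 h and 0.32 at 72 h. For genes of 65 to 70%, the class of JUNB and IER2, it was 0.57 and 0.58. For genes of 70% or more, the class of JUND, it was 1.12 and 1.39. Against the median of their class, 6 of 7 genes at 36 h and 7 of 8 at 72 h lay higher, with JUN at 1.10, EGR1 at 1.03 and IER2 at 0.87 above it at 72 h. JUND stood at -0.79 and -1.07 relative to its class.

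An offset for GC content fitted within each library type called 5 of 7 genes at 36 h and 8 of 8 at 72 h, all higher, with JUND gained at 36 h (0.48, adjusted p = 0.0292) and ATF3 at 72 h (0.30, adjusted p = 0.0754). A second offset for GC content over both library types, chosen after the values had been seen, moved JUND to -0.77 at 36 h (adjusted p = 0.00192) and -0.94 at 72 h (adjusted p = 2.12e-07), so its direction turned. With it 3 genes were called higher and 1 lower at 36 h, JUNB losing its call at 0.71 (adjusted p = 0.122), and 7 higher and 1 lower at 72 h, where ATF3 joined at 0.43 (adjusted p = 0.0156). Footprint and mRNA libraries were made by different protocols, so ribosome density and library composition cannot be told apart in this comparison.

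**Figure D4:**
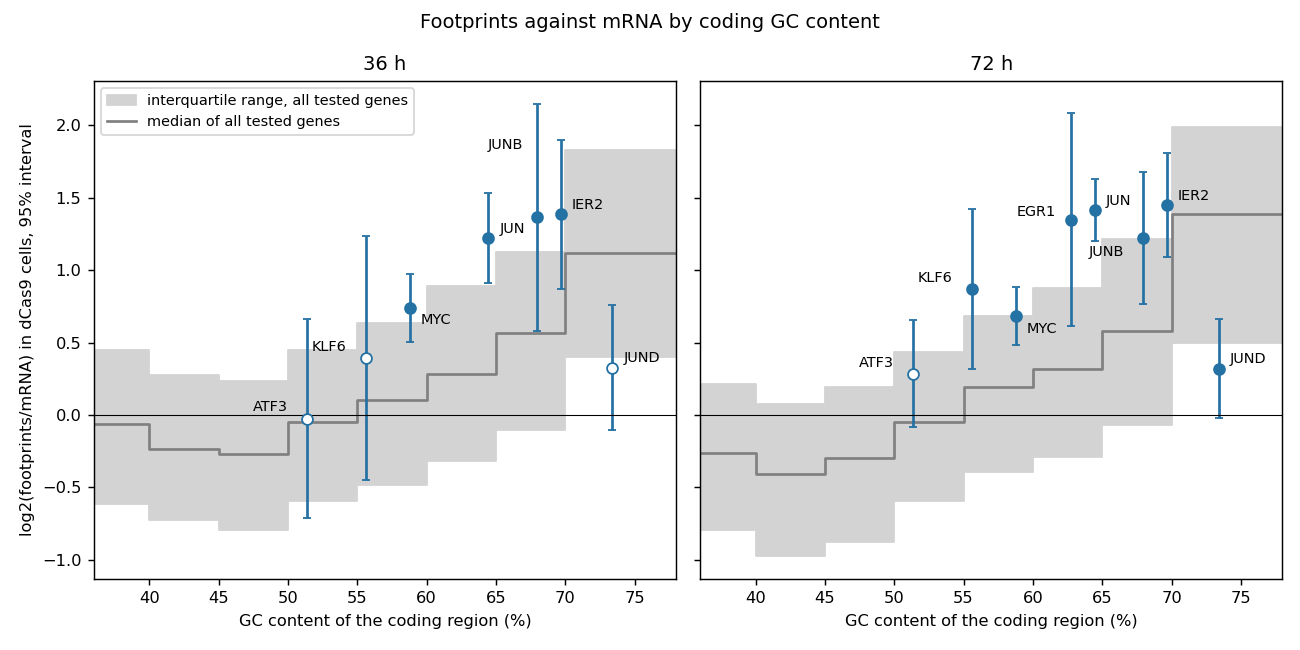
Log2 ratio of footprints to mRNA in dCas9 cells against coding GC content in percent at 36 h (left) and 72 h (right), with a point and 95% confidence interval for each tested gene of the 9, filled where called at an adjusted p under 0.1, and the median (line) and interquartile range (band) of all tested genes in each class of GC content. JUN, IER2 and JUNB lie above the median of their class at both time points and JUND below it.

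The genes did not vary as 1 block over the libraries. The 7 genes tested at 36 h as well as 72 h were each centred within time point and library type, and log2 CPM was set against the median of the 7 over the 17 libraries. The Pearson correlation was 0.85 for JUN, 0.78 for IER2, JUND and MYC, 0.37 for JUNB, 0.33 for ATF3 and 0.03 for KLF6. The median is formed from these genes themselves, so these values describe who shapes it. The dCas9 a mRNA library at 72 h lay highest, at 0.18, with 7 of 7 genes above their mean, and the footprint library dCas9 d at 36 h lowest, at -0.23, with 1 of 7 above. Of 8970 genes, those most like the median were POU3F3 (0.89), TSC2 (0.88), C1orf198 (0.87), FSCN1 (0.87) and EPN1 (0.85).

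The genes around the 9 were read from lists drawn up by function, also with earlier results known. Of 49 further immediate and delayed early genes, 28 were tested at 36 h and 34 at 72 h. Between Cas9 and dCas9 cells 1 was called, CCN1, a secreted matrix protein, lower in mRNA at 72 h at -0.64 (SE 0.16, adjusted p = 0.0429). That was 2.94% of the list's tested genes, where 5.2% of all tested genes were called lower. The list's median in mRNA at 72 h was -0.04 against 0.02 over all tested genes. In dCas9 cells 15 were called higher and 3 lower in footprints than in mRNA at 36 h, and 24 and 4 at 72 h. These were 53.6% and 10.7% of the genes tested in the list at 36 h, where 23.6% and 24.6% of all tested genes were called, and 70.6% and 11.8% at 72 h, against 32.7% and 37.8%. ID1 (2.01 and 1.82) and ID3 (1.21 and 1.48), inhibitors of helix-loop-helix factors, lay on the side of IER2 and JUN. PPP1R15A (-1.79 and -2.17), a phosphatase subunit with upstream reading frames, and TIPARP (-0.64 and -1.02) lay on the other.

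Among partners and inputs of the 9 genes few passed the test between nucleases. Of the AP-1 and CREB family partners, 0 of 13 at 36 h and 0 of 16 at 72 h were called in mRNA, footprints or translational efficiency. In the dCas9 ratio of footprints to mRNA 4 were called higher and 3 lower at 36 h, then 5 and 6, shares of 30.8% and 23.1%, then 31.2% and 37.5%, near those of all tested genes (23.6% and 24.6%, then 32.7% and 37.8%). ATF4, whose mRNA is known for upstream reading frames, was among the lower ones (-2.89 and -3.54). In the MYC network 1 of 12 was called in mRNA at 72 h (8.33%, where 5.2% of all tested genes were called lower), the MAX partner MNT at -0.81 (SE 0.17, adjusted p = 0.0138). In the dCas9 ratio 0 of 10 were called higher and 3 lower at 36 h (30.0%), MAX among them at -1.22, then 2 and 4 of 12 (16.7% and 33.3%). Of the serum response factor and kinase inputs, 1 of 21 was called in mRNA at 72 h (4.76%), the coactivator MRTFB at -0.65 (SE 0.15, adjusted p = 0.0228). In the dCas9 ratio 4 were called higher and 5 lower (22.2% and 27.8%), then 6 and 13 (28.6% and 61.9%). The ternary complex factors ELK1 at 36 h (-2.04) and ELK4 at 72 h (-2.43) were among the lower ones.

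Of the factors that bind AU-rich elements or remove poly(A) tails, 4 of 17 were called lower in mRNA at 72 h and 0 higher, where 5.2% of all tested genes were called lower, and the list's median was -0.26. They included CNOT3, a subunit of the deadenylase complex (-0.83, adjusted p = 0.000926), ZFP36L1, which binds AU-rich elements (-0.90, 0.033), and KHSRP (-0.38, 0.051). CNOT3 was also called higher in translational efficiency, at 0.73 (adjusted p = 0.0726), as 1 of 17. All 3 genes have a coding GC content of 60.4 to 64.0%. At 36 h 0 of 17 were called in any of the 3 comparisons. In the dCas9 ratio 6 were called higher and 6 lower at 36 h (35.3% each, where 23.6% and 24.6% of all tested genes were called), then 7 and 8 (41.2% and 47.1%, against 32.7% and 37.8%), with HNRNPD (2.66 and 2.73) and ZFP36L2 (2.21 and 2.63) high and CNOT7 (-1.60 and -2.06) low.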

How the data were processed

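Footprint and mRNA libraries of HEK293 cells were assigned by their labels to nuclease, time point, type and replicate letter (17 libraries). The later Cas9 footprint titles read rcas9, so there the treatment label decided. The 36 h footprint library of Cas9 b is not used here. The authors aligned reads with hisat2 (36 h, GENCODE 22) or tophat (72 h, GENCODE 25), while the submitters' processing notes name HISAT2 2.1.0 and GRCh38, and they deposited counts of reads per transcript from fp-count, without normalization. A read shared by transcripts of a gene may be counted on each.

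Transcripts were matched to GENCODE 44, and the transcript with the highest summed count was kept for each gene and time point. For MYC it differed between the time points, with the same coding region but for 1 codon. Each time point was fitted in edgeR 4.0.16 (R 4.3.3, limma 3.58.1) with a mean for each nuclease and library type, TMM normalization, the quasi-likelihood test and Benjamini-Hochberg adjustment over all tested genes at 0.1, and edgeR was tested on simulated data. Genes needed a mean count of 20 in each library type. CPM divides by the total over tested genes times the TMM factor. Intervals and floors cover the spread of these libraries or counting error only, and replicates are separate plates of 1 line. Alternatives were DESeq2 1.42.0, its size factors in edgeR, 2 other count filters, each type alone, a replicate block, GC offsets, the transcripts of 36 h at 72 h and leaving out each library. The members and lists were chosen with earlier results of these data known. Named are all 9 members, up to 3 higher and 3 lower called genes for each list and comparison by adjusted p, and the 5 genes most like the members' median. Motifs were searched on both strands, and proteins were not used here.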

Additional observations from a re-analysis of the deposited data

Results flagged for a closer look

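ATF3 differed in direction between the time points. Its footprints were higher in Cas9 than in dCas9 cells in 4 of 4 pairs of libraries at 36 h (log2 difference 0.43, adjusted p = 0.73) and in 0 of 4 pairs at 72 h (-0.093, adjusted p of about 1). Its translational efficiency was higher in 24 of 24 combinations at 36 h (0.52, adjusted p = 0.886) and in 0 of 16 at 72 h (-0.17, adjusted p = 0.841). Of all tested genes, 16.3% had all footprint pairs higher at 36 h and 15.8% had all lower at 72 h. In translational efficiency these shares were 7.84% and 11.2%, and the combinations reuse the same libraries. The difference between the time points was not tested, and none of the 4 ATF3 values passed the edgeR test. The ATF3 footprint counts behind them were 13 to 95 at 36 h and 42 to 130 at 72 h.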

How the results depend on the processing

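The counts of called members kept their size within 1.5 times under 58 of 64 alternative settings and 62 of 68 fits that left out a library. A count of 0 that stayed at 0 was taken as kept. This covers every comparison of the nucleases at 36 h and footprints at 72 h. The counts that moved were all in mRNA or translational efficiency at 72 h. In translational efficiency at 72 h 1 member, KLF6, was called with median-ratio size factors, no count minimum, the GC content offset, that offset with the replicate block, and the crossed replicate block, where the main count was 0. In mRNA at 72 h 0 members were called with the replicate block, and leaving out a library gave 0 to 5 in mRNA and 0 to 1 in translational efficiency. The deviations of libraries with the same replicate letter correlated at 0.011 to 0.065 within lysates of 36 h. At 72 h they correlated at 0.011 in footprints and -0.14 in mRNA. Weak correlations cannot show that pairing is absent, and the paper states that lysates were divided between both library types. The replicate block changed no other call of a member. With the mRNA letters of 72 h crossed, a choice made after seeing the data, 1133 genes were called in mRNA, 535 with the letters as given. Over all genes, calls in translational efficiency at 72 h were 78 in the main fit, 67 with filterByExpr, 170 with median-ratio size factors, 221 in DESeq2, 260 with no count minimum, 577 with the GC content offset and 744 with offset and block. Calls in mRNA at 72 h were 613, 293 with each library type alone, 1960 with the offset and 2117 with offset and block. Directions that turned were all of differences the main fit did not call, except JUND at 72 h. ATF3 footprints against mRNA in dCas9 cells at 36 h were 0.023 with no count minimum and with filterByExpr, 0.021 with the replicate block and 0.11 with the GC content offset across library types, which gave JUND -0.77 at 36 h and -0.94 at 72 h. With the GC content offset, translational efficiency at 36 h was -0.0098 for JUNB, -0.010 for JUND and -0.018 for MYC, and at 72 h -0.090 for EGR1 (-0.098 with the block). Leaving out single libraries turned the direction of other differences, none of them called in the main fit, here with their ranges. For footprints at 36 h they were IER2 (-0.0045 to 0.61) and JUN (-0.11 to 0.32). For mRNA at 36 h they were ATF3 (-0.27 to 0.12), IER2 (-0.026 to 0.076), JUN (-0.11 to 0.0065) and JUND (-0.087 to 0.15). For translational efficiency at 36 h they were IER2 (-0.032 to 0.58), JUN (-0.064 to 0.37) and JUNB (-0.019 to 0.33). For footprints against mRNA in dCas9 cells at 36 h it was ATF3 (-0.21 to 0.18). For footprints at 72 h they were EGR1 (-0.32 to 0.029), IER2 (-0.14 to 0.27), JUND (-0.025 to 0.29) and MYC (-0.056 to 0.021). For mRNA at 72 h they were ATF3 (-0.020 to 0.14), EGR1 (-0.47 to 0.15), JUNB (-0.020 to 0.43) and JUND (-0.39 to 0.069). For translational efficiency at 72 h they were EGR1 (-0.29 to 0.34) and JUNB (-0.056 to 0.39). The cause was not tested. A fit without a library leaves some groups with 1 sample, which is assumed to vary like the others. Footprint depth at 36 h limits JUNB, ATF3 and KLF6, and FOS and EGR1 most.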
